A study of Arabidopsis thaliana with 2 samples.

Results

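The histone genes of Arabidopsis thaliana were followed in the 2 regions of the globular embryo. The set was a list of 45 loci: 13 H2A genes (HTA1 to HTA13), 11 H2B genes (HTB1 to HTB11), 10 H3 genes of the HTR series, 8 H4 genes and 3 linker histone genes (H1.1 to H1.3). They were picked by locus identifier, out of 20029 genes listed in either library. The embryo proper library listed 42 of them and the suspensor library 44, with 41 listed in both, and an unlisted gene was taken as 0.

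The embryo proper is the apical ball of cells that becomes the seedling, and the suspensor is the basal stalk that anchors and feeds it. Both came from plants of genotype Ws-0 at the globular stage, and the labels name no treatment. Plants were 38 to 46 days old, kept at 20 °C under constant light, with siliques of 1.1 to 1.4 cm, and embryos 24 to 32 μm across were used. Each region was isolated by laser capture (sections 5 or 7 μm thick) and gave 1 library, so no test was possible and every difference describes these 2 libraries. The sources used here do not give the number of seeds or plants pooled. Levels are RPKM, reads per kilobase of coding sequence and per 1000000 reads, and the reads behind them were recovered from the deposited values, 12715777 in the embryo proper against 7189056 in the suspensor.

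Region markers followed the labels. The marker lists were chosen with earlier results of these data known, so they are no independent check of the labels. All 5 embryo proper markers (WOX2, PHB, CUC3, DRNL and AGO10) were at least 2-fold up in the embryo proper, and all 4 suspensor markers (WOX8, PIN7, SSP and WRKY2) at least 2-fold higher in the suspensor. Markers of the neighbouring seed tissues were also higher in the suspensor library, at least 2-fold for 8 of 9 endosperm genes and 6 of 9 seed coat genes. Over all genes that reached 1 RPKM in either library, the shares were 23.1% toward the embryo proper and 29.3% toward the suspensor. Summed levels were 22.7 RPKM in the embryo proper against 351 in the suspensor for endosperm markers, and 3.55 and 86.3 RPKM for seed coat markers. The seed coat gene TT16 was unlisted in both libraries, and BAN, TT2 and TT8 were unlisted in the embryo proper. The part of these tissues in the histone values was not tested.

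A nucleosome wraps DNA around a core of H2A, H2B, H3 and H4, and H1 binds the linker DNA between cores. Replication-dependent (canonical) histones are made mainly in S phase to package new DNA, whereas variants are also made outside it and take their place at particular sites. H2A.Z lies at gene starts, H2A.X is phosphorylated at DNA breaks, H2A.W marks plant heterochromatin, H3.3 is placed in transcribed genes independently of replication, and CENH3 builds the centromere. Canonical H2A, canonical H2B, H3.1 and H4, 27 genes in all, were compared here with 15 variant genes and 3 linker genes.

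Histone transcripts were more abundant in the embryo proper, and the difference was far larger for replication-dependent genes than for H3.3 and H2A.Z. Among other variants, H2A.W (7.42-fold) and CENH3 (8.78-fold) differed as much in summed level as the replication-dependent genes (6.92-fold). The 45 genes together stood at 51660 RPKM in the embryo proper against 10400 in the suspensor. They took 2.04% of all recovered reads in the embryo proper (95% exact binomial interval 2.03 to 2.045) and 0.420% in the suspensor (0.416 to 0.425). These intervals, like all that follow, cover counting error only and not variation between samples, since each region had 1 library. They treat reads as independent. Reads amplified with no molecular identifiers may be copies of one another, so the intervals may be too narrow. In such bulk samples, fewer cells making a transcript and less of it per cell cannot be told apart.

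At a 2-fold threshold on log2(RPKM + 1), 33 of the 45 genes passed it toward the embryo proper, 5 toward the suspensor. Another 4 lay between, and 3 did not reach 1 RPKM in either library (HTB6, HTB8 and H1.3). Among the 16975 genes of the whole table that reached 1 RPKM in either library, 23.1% passed it toward the embryo proper, 29.3% toward the suspensor. Medians of log2 suspensor over embryo proper were −2.65 for the 26 replication-dependent genes that reached 1 RPKM and −1.23 for 14 variant genes, against 0.13 over all genes. Summed levels of the replication-dependent genes were 41540 RPKM in the embryo proper against 6003 in the suspensor, 6.92-fold apart. Those of the variant genes were 8955 and 4080 RPKM, 2.195-fold apart, of which the H3.3 gene HTR5 alone made 4342 and 2350 RPKM.

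**Figure D1:**
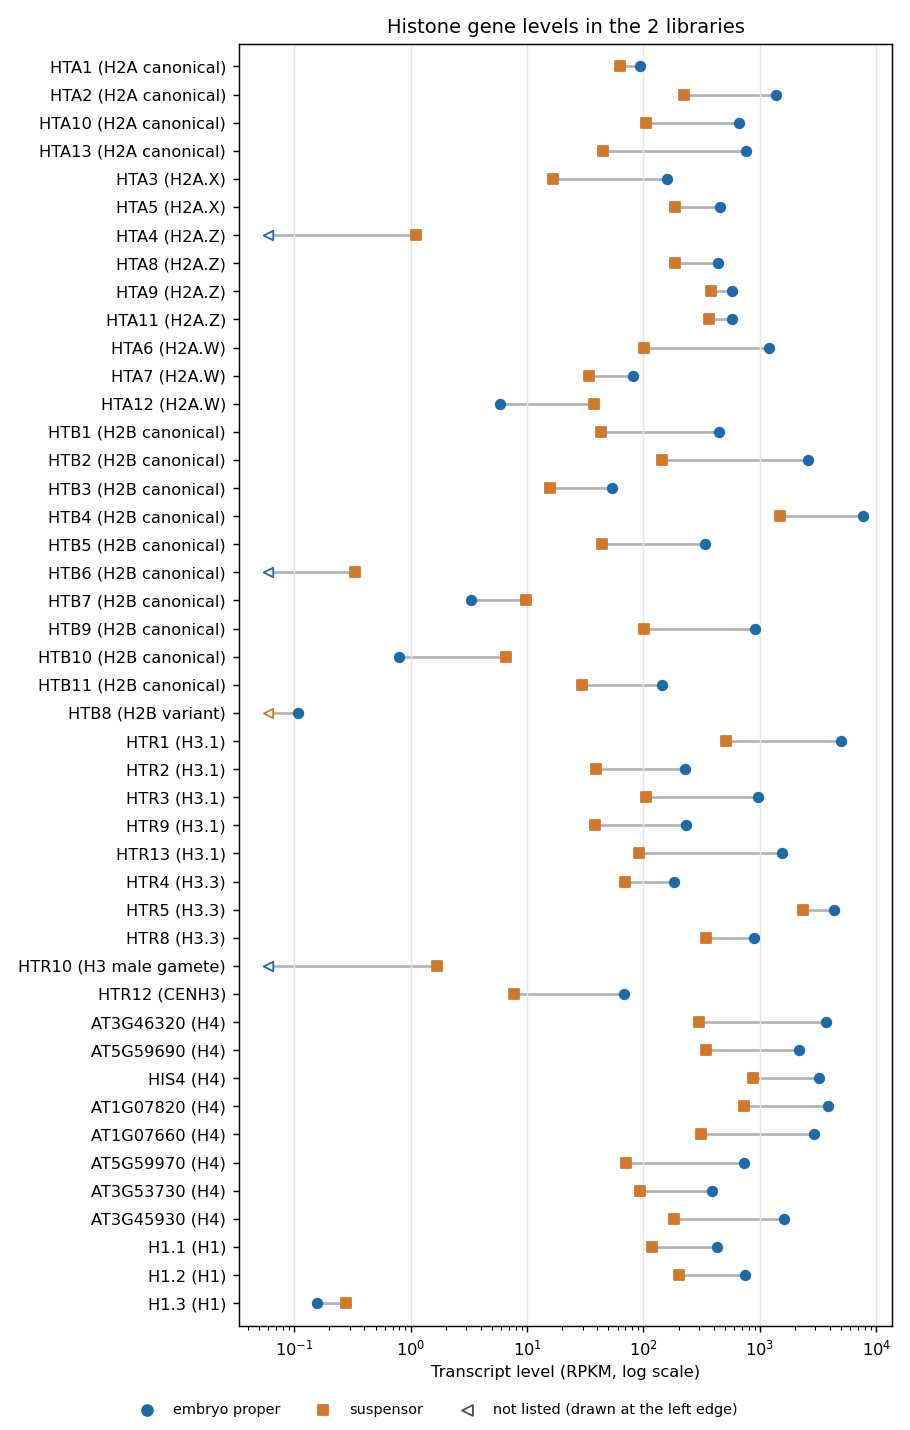
Level of each of the 45 histone genes in RPKM on a log axis, with a circle for the embryo proper library, a square for the suspensor library and an open triangle at the left edge where a gene was not listed. Circles lie to the right of squares in most rows; among genes listed in both libraries the exceptions are HTA12, HTB7, HTB10 and H1.3.

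Histone H3 showed the clearest split between forms. The 5 H3.1 genes (HTR1, HTR2, HTR3, HTR9 and HTR13) encode an identical protein, and so do the 3 H3.3 genes (HTR4, HTR5 and HTR8), for HTR4 in the annotated model of that length. Counting residues after the first methionine, the H3.3 protein differs from H3.1 by A31T, F41Y, S87H and A90L. The coding sequences are further apart, with 310 of 411 bases identical between HTR1 and HTR5, so that reads of the 2 forms can be told apart. The stretch below is coding bases 256 to 291 of each gene, shown because it holds S87H and A90L; capitals mark their codons. The sequences are RefSeq's, build TAIR10.1, a Columbia genome, and Ws-0 may differ from it. HTR1 is at chr5:26120219-26120254 and HTR5 at chr4:18557659-18557694, both on the minus strand.
HTR1 (H3.1): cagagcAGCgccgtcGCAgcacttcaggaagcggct
HTR5 (H3.3): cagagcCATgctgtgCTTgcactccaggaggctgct

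HTR1 (AT5G65360), the most abundant H3.1 gene, stood at 4979 RPKM in the embryo proper against 506.6 in the suspensor, 9.83-fold higher in the former (9.33 to 10.4). HTR13 (AT5G10390) stood at 1537 and 92.4 RPKM, 16.6-fold apart (14.7 to 18.8), and HTR3 (AT3G27360) at 957 and 105 RPKM, 9.095-fold apart (8.11 to 10.2). All 5 H3.1 genes were higher in the embryo proper, and the lowest folds were those of the least abundant pair. Of the 411 coding bases of HTR3, 260 also lie in exons of AT3G27380 on the same strand, so its level is uncertain. HTR9 (AT5G10400) was at 230.4 and 38.2 RPKM, 6.02-fold apart (4.96 to 7.37). HTR2 (AT1G09200) was at 226.5 and 38.9 RPKM, 5.82-fold apart (4.80 to 7.11).

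The H3.3 genes differed much less. HTR5 (AT4G40040) stood at 4342 RPKM in the embryo proper against 2350 in the suspensor, 1.85-fold apart (1.80 to 1.90), and was the 41st most abundant gene of the suspensor library. HTR8 (AT5G10980) was at 886 and 342.5 RPKM, 2.59-fold apart (2.42 to 2.77). HTR4 (AT4G40030), which lies 42 bases from HTR5 on the same strand, was at 183.0 and 69.4 RPKM, 2.64-fold apart (2.30 to 3.04). The folds of the 3 H3.3 genes, 1.85 to 2.64, did not overlap those of the 5 H3.1 genes, 5.82 to 16.6. Summed over the class, H3.1 reads as a share of the library were 10.15-fold higher in the embryo proper (9.73 to 10.6). For H3.3 the same measure was 1.96-fold (1.915 to 2.01).

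The make-up of the H3 pool therefore differed between the libraries. H3.3 genes held 40.35% of the summed H3 level in the embryo proper against 77.7% in the suspensor. As a share of recovered H3 reads these were 40.5% (40.1 to 40.8) and 77.8% (77.0 to 78.6). H3.1 held 59.1% and 22.0% of the summed level. A share within a family does not move with the scaling of a library.

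The remaining H3 genes were low. HTR12 (AT1G01370), which encodes the centromeric histone CENH3, stood at 68.2 RPKM in the embryo proper against 7.77 in the suspensor, 8.78-fold apart (6.07 to 13.2), within the range of the H3.1 genes. HTR10 (AT1G19890), the H3 gene of male gametes, rested on 5 reads in the suspensor, at 1.68 RPKM. It was unlisted in the embryo proper. With the embryo proper set at a floor of 3 reads, HTR10 was 2.95-fold higher in the suspensor. That value leaves out the counting error of the 5 reads.

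H2A classes also differed in size of difference. Summed levels were 6.62-fold higher in the embryo proper for canonical H2A, 7.42-fold for H2A.W, 3.03-fold for H2A.X and 1.70-fold for H2A.Z, but single genes varied within each class, and HTA12 of H2A.W went the other way. The end of the protein tells H2A.X and H2A.W apart from the other classes. Both H2A.X proteins carry a serine-glutamine motif there and all 3 H2A.W proteins a serine-proline-lysine-lysine motif in their last 25 residues, and the canonical and H2A.Z proteins have neither. The last 48 coding bases, stop codon included, are shown for the member of each of 3 classes with the highest fold, with the motif codons in capitals (TAIR10.1; HTA13 at chr3:7229916-7229963, plus strand; HTA3 at chr1:20414607-20414654 and HTA6 at chr5:24115605-24115652, minus strand).
HTA13 (canonical): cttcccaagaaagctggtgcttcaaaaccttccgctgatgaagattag
HTA3 (H2A.X): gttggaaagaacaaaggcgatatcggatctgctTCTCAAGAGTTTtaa
HTA6 (H2A.W): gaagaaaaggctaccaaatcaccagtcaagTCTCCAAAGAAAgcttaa

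Among canonical H2A genes, HTA13 (AT3G20670) stood at 767.1 RPKM in the embryo proper against 45.3 in the suspensor, 16.9-fold apart (14.2 to 20.3). HTA2 (AT4G27230), the most abundant, was at 1363 and 222.7 RPKM, 6.12-fold apart (5.64 to 6.65), and HTA10 (AT1G51060) at 656.9 and 104.6 RPKM, 6.28-fold apart (5.58 to 7.09). HTA1 (AT5G54640), known as RAT5 for its part in Agrobacterium transformation, was at 93.05 and 62.3 RPKM, only 1.49-fold apart (1.25 to 1.79). It made 3.23% of the canonical H2A level in the embryo proper against 14.3% in the suspensor.

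The pair of H2A.X genes differed from each other. HTA3 (AT1G54690) stood at 160 RPKM in the embryo proper against 16.5 in the suspensor, 9.69-fold apart (7.30 to 13.1). HTA5 (AT1G08880) was at 451 and 185 RPKM, 2.44-fold apart (2.22 to 2.67). The intervals of the 2 folds do not overlap, and non-coding RNA genes on the other strand cover 159 coding bases of HTA3, 183 of HTB9 and 312 of H1.1, whose reads cannot be told apart without strand.

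H2A.Z had the smallest summed difference of the H2A classes. HTA9 (AT1G52740) stood at 580 RPKM in the embryo proper against 381 in the suspensor, 1.52-fold apart (1.42 to 1.63). HTA11 (AT3G54560) was at 573 and 365.5 RPKM, 1.57-fold apart (1.46 to 1.68), and HTA8 (AT2G38810) at 435 and 186 RPKM, 2.34-fold apart (2.13 to 2.57). HTA4 (AT4G13570) rested on 3 reads in the suspensor, at 1.11 RPKM, and was unlisted in the embryo proper, so no fold is given, although its log2(RPKM + 1) difference of 1.08 passed the threshold. A miRNA gene on the other strand covers 65 coding bases of HTA4. H2A.Z genes held 25.0% of the summed H2A level in the embryo proper against 53.6% in the suspensor, or 24.6% (24.2 to 25.1) and 52.9% (51.5 to 54.25) of recovered H2A reads. The share of canonical H2A was 45.3% in the embryo proper against 25.0% in the suspensor, and that of H2A.X 9.62% and 11.6%.

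**Figure D2:**
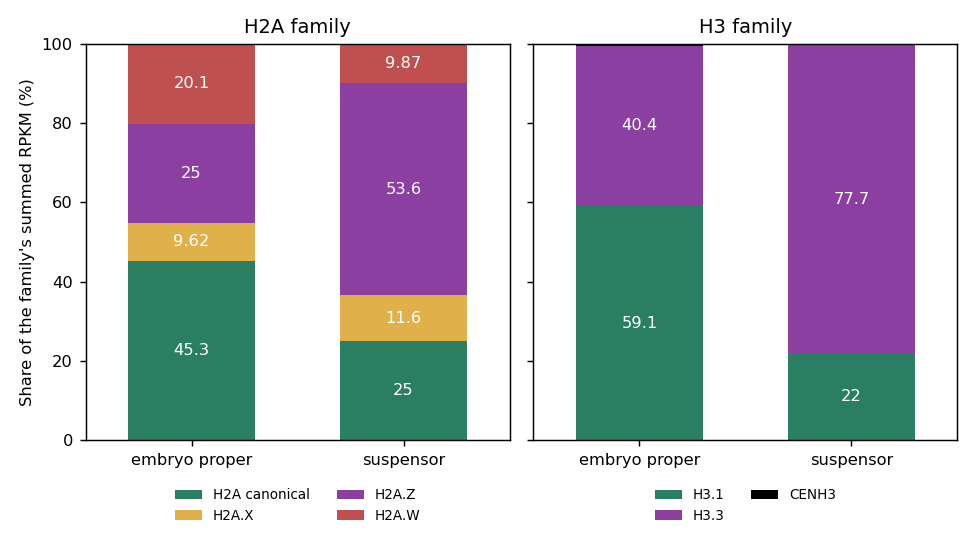
Share of the summed RPKM of the H2A family (left) and the H3 family (right) held by each class, as stacked bars for the embryo proper and suspensor libraries; the male gamete gene HTR10, at most 0.0473%, is not drawn. H2A.Z goes from 25.0% to 53.6% and H3.3 from 40.35% to 77.7%.

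The H2A.W genes went in opposite directions. HTA6 (AT5G59870) stood at 1189 RPKM in the embryo proper against 101 in the suspensor, 11.8-fold apart (10.53 to 13.2), and HTA7 (AT5G27670) at 81.6 and 33.8 RPKM, 2.42-fold apart (1.96 to 3.00). HTA12 (AT5G02560) was higher in the suspensor, at 37.25 RPKM against 5.89, 6.32-fold (4.43 to 9.22) on 143 and 40 reads. HTA12 made 0.462% of the H2A.W level in the embryo proper against 21.65% in the suspensor, while the share of HTA6 was 93.15% and 58.7%. The class as a whole held 20.1% of the H2A level in the embryo proper against 9.87% in the suspensor.

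HTB10 (AT5G02570), an H2B gene, lies on the opposite strand within HTA12, and the 522 bases of HTB10 are all exonic in both. HTB10 was likewise higher in the suspensor, at 6.62 RPKM against 0.788, 8.41-fold (2.79 to 34.0), on 19 and 4 reads. The sources used here do not say whether reads were counted by strand, nor whether over coding bases or whole exons. All 399 coding bases of HTB10 lie in exons of HTA12, so without strand its reads cannot be told apart from those of HTA12. No coding base of HTA12 lies in HTB10, so counting over coding bases would leave the HTA12 value free of this overlap. HTB7 (AT3G09480) was also higher in the suspensor, at 9.86 RPKM against 3.303, 2.98-fold (1.55 to 5.93), on 27 and 16 reads. Of the 5 genes at least 2-fold higher in the suspensor, HTA12 alone exceeded 10 RPKM; the others were HTB7, HTB10, HTR10 and HTA4. The endosperm and seed coat markers, whose sums are given above, were higher in the same library, and their part in these values was not tested.

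The other H2B genes with at least 1 RPKM were all higher in the embryo proper. HTB4 (AT5G59910) was the most abundant histone gene in the embryo proper library, at 7643 RPKM against 1486 in the suspensor, 5.145-fold apart (4.99 to 5.30). HTB2 (AT5G22880) was at 2570 and 143.9 RPKM, 17.9-fold apart (16.3 to 19.7), the highest fold of the 45 genes. HTB4 made 63.1% of the H2B level in the embryo proper against 79.0% in the suspensor, and HTB2 21.2% and 7.65%.

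The remaining 5 of these H2B genes ranged from 3.37-fold to 10.2-fold. HTB1 (AT1G07790) stood at 445.5 RPKM in the embryo proper against 43.6 in the suspensor, and HTB9 (AT3G45980) at 914 and 101 RPKM. HTB5 (AT2G37470) was at 336.6 and 44.0 RPKM. HTB11 (AT3G46030) was at 144 and 29.5 RPKM, and HTB3 (AT2G28720), the lowest of them, at 53.5 and 15.9 RPKM. HTB6 (AT3G53650) had 1 read in the suspensor and was unlisted in the embryo proper. HTB8 (AT1G08170), an H2B variant of sperm and seeds, had 1 read in the embryo proper and was unlisted in the suspensor.

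The 8 H4 genes encode 1 protein and were all at least 2-fold up in the embryo proper, against 23.1% of all genes. Some of them share stretches of sequence, as given below, so they may share reads. AT3G46320 stood at 3687 RPKM in the embryo proper against 299 in the suspensor, 12.3-fold apart (11.4 to 13.3), the highest fold of the family. AT2G28740 (HIS4) was at 3245 and 873.8 RPKM, 3.71-fold apart (3.54 to 3.90), the lowest. HIS4 and AT1G07820, the latter at 3866 and 732.5 RPKM, were the most abundant H4 genes of the suspensor, at 30.1% and 25.2% of the H4 level there, against 17.4% and 20.8% in the embryo proper.

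The other 5 H4 genes lay between these folds. AT1G07660 was at 2922 and 311 RPKM, 9.40-fold apart (8.71 to 10.2), and AT5G59690 at 2182 and 342 RPKM, 6.38-fold apart (5.93 to 6.88). AT3G45930 was at 1599 and 183 RPKM and AT5G59970 at 724.9 and 71.3 RPKM, 8.745-fold and 10.2-fold apart. AT3G53730, the least abundant in the embryo proper, was at 390.7 and 93.6 RPKM, 4.17-fold apart (3.61 to 4.84).

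Near-identical copies limit how far single H4 genes can be separated. Of 50-base windows along each coding sequence, 12 of the 45 genes had some that recur exactly in exons of another histone gene of the set. They were 6 H4 genes, with 22.4% to 58.2% of windows shared, and the pairs HTA10 and HTA13 (10.9%), HTB9 and HTB11 (at most 3.34%), and HTR3 and HTR9 (2.76%). The longest shared stretch, 147 bases, joined AT3G46320 and AT3G45930. HIS4 and AT3G53730 shared no such window. Read length was not stated, and stretches just under the window, of 47 or 48 bases, were also shared. They joined HTA1 with HTA2, HTB4 and HTB5 with HTB9, HTB6 with HTB11, and HTR4 with HTR5, so shorter reads could be shared there too. The sources used here do not state how reads with several matches were counted, so levels of the 6 H4 genes are uncertain singly. Summed over all 8, the H4 level was 18620 RPKM in the embryo proper against 2906 in the suspensor, 6.41-fold apart in their share of reads (6.25 to 6.57).

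**Figure D3:**
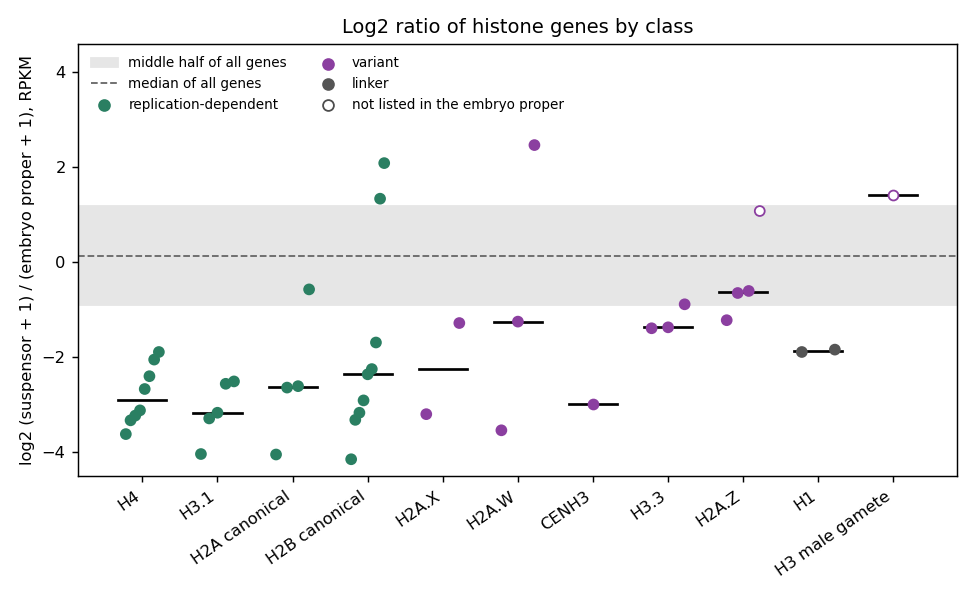
Log2 ratio of suspensor to embryo proper, (RPKM + 1) in each, for the 42 histone genes that reached 1 RPKM, by class; bars are class medians, open circles are genes not listed in the embryo proper, and the grey band and dashed line are the interquartile range and the median of all 16975 genes. H4 and H3.1 lie at or below −1.89, while most H2A.Z genes lie inside the band.

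Linker histones had an intermediate difference. H1.2 (AT2G30620) stood at 744.6 RPKM in the embryo proper against 200.2 in the suspensor, 3.72-fold apart (3.50 to 3.96). H1.1 (AT1G06760) was at 426 and 118 RPKM, 3.605-fold apart (3.33 to 3.91), so the balance between these main somatic forms was alike, with H1.2 at 63.6% and 62.8% of the H1 level. H1.3 (AT2G18050), the stress-inducible form, had 1 read in each library. Relative to H4, the H1 level was 0.0629 in the embryo proper against 0.110 in the suspensor. The ratio of H2B to H4 was 0.651 and 0.647, whereas that of H3 to H4 was 0.720 and 1.22 and that of H2A to H4 was 0.341 and 0.5997.

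Gene structure ran along the same lines as class. The coding sequence is a single exon in 24 of the 45 genes, among them all H2B, H3.1 and H4 genes, and is split in all canonical H2A genes, all H2A variants, all H3.3 genes, HTR10, CENH3 and H1. The 24 single-exon genes summed to 38660 RPKM in the embryo proper against 5568 in the suspensor, 6.94-fold apart. The 21 split genes summed to 13010 and 4833 RPKM, 2.69-fold apart. Canonical H2A genes, which are split, still had a summed difference of 6.62-fold.

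Promoters of plant histone genes carry known short elements, among them an octamer (CGCGGATC) and a hexamer (ACGTCA). In the 250 bases before the annotated start, on either strand, the octamer was found in 10 of the 45 histone genes and in 0.135% of the 27443 promoters of nuclear protein-coding genes. It was present in 2 of 4 canonical H2A, 3 of 5 H3.1, 2 of 8 H4, 1 of 3 H2A.W, 1 of 3 H3.3 and 1 of 3 H1 promoters, and in 0 of 10 canonical H2B promoters. The hexamer was found in 12 of 45 histone promoters, 8 of them canonical H2B genes, and in 7.69% of all promoters. Apart from HTB genes, the hexamer occurred before HTR3, HTR8, HTR9 and HTR10. No matches of different elements overlapped in histone promoters.

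Promoters of 4 genes are shown as examples, the 150 bases before the start, with both elements in capitals: HTA13 and HTR1 for large differences, HTR5 for a small one, and HTB5 for the hexamer of H2B genes. They are from RefSeq, TAIR10.1: HTA13 at chr3:7229240-7229389 and HTB5 at chr2:15736577-15736726 on the plus strand, HTR1 at chr5:26120582-26120731 and HTR5 at chr4:18558946-18559095 on the minus strand.
HTA13: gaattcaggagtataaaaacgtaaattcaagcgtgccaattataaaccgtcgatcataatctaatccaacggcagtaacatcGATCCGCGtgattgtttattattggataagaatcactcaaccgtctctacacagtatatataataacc
HTR1: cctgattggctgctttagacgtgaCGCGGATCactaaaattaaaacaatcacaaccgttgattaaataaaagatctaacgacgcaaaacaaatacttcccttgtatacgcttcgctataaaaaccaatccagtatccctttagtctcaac
HTR5: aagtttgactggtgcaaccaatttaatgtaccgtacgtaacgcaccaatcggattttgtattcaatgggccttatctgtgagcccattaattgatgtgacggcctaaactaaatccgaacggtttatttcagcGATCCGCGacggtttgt
HTB5: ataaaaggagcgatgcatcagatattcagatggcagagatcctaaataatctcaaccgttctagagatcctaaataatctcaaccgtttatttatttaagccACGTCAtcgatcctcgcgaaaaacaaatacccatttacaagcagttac

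Of the 10 histone genes with the octamer, 9 were at least 2-fold up in the embryo proper, HTR5 being the exception, and their median log2 ratio was −2.65. Of 32 without it that reached 1 RPKM, 24 were at least 2-fold up there, 5 were so in the suspensor, and the median was −1.97. The 16 other protein-coding genes with the octamer and at least 1 RPKM had 3 members at least 2-fold up in the embryo proper against 6 in the suspensor, with a median of 0.70. Among the 16803 others without it, 3868 passed toward the embryo proper, 4923 toward the suspensor, and the median was 0.13. E2F sites (TTTCCCGC, TTTGGCGC, TTTCGCGC or TTTGCCGC) were found in 3 of 45 histone promoters and 1.41% of all, and a TATA box (TATAAA) in 20 of 45 and 47.3% of all. A further element searched, the nonamer CATCCAACG, was found in 0 of 45 and 0.149% of all. A match describes letters in the window and does not show that a factor binds there.

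**Figure D4:**
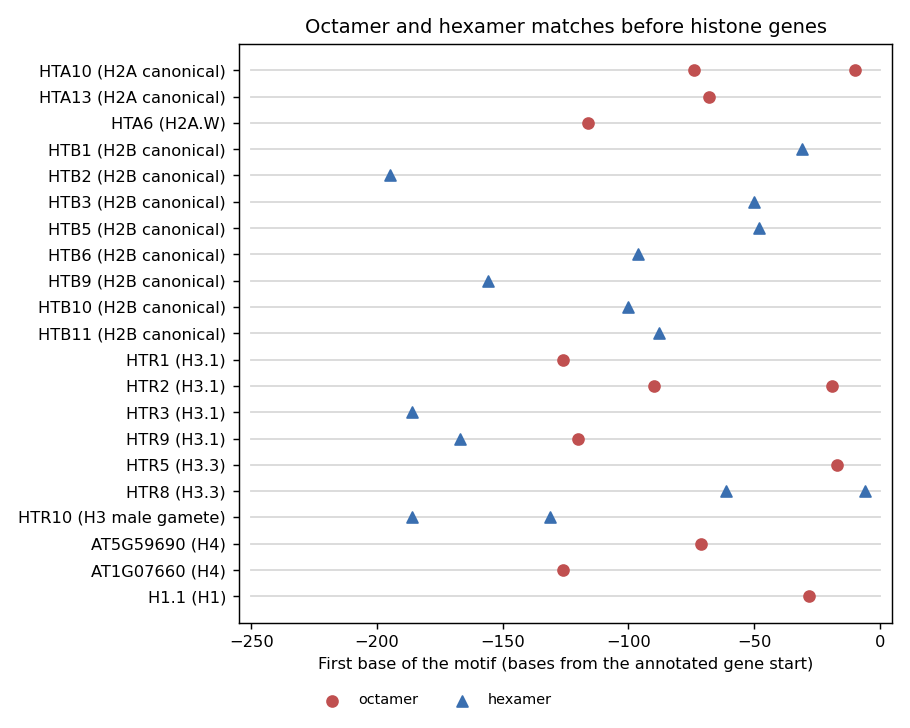
First base of each octamer (circles) and hexamer (triangles) match, in bases from the annotated gene start, in the 250 bases before the 21 histone genes that have either. Octamer matches lie before H2A, H3, H4 and H1 genes, from −126 to −10, and the H2B genes drawn hold hexamer matches.

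Genes that carry, exchange, load or methylate histones had a smaller median difference than the replication-dependent histones. Of 26 such genes, 12 passed the 2-fold threshold on log2(RPKM + 1) toward the embryo proper and 0 toward the suspensor. The shares over all genes were 23.1% and 29.3%, and the median log2 ratio of the 26 genes was −0.86. By the plain ratio of RPKM, the H3.1 methylation gene ATXR5 (2.19-fold toward the embryo proper) would pass as well. So would the remodeller INO80 (2.002-fold toward the suspensor). Of 7 H2A-H2B chaperones, 5 passed toward the embryo proper, while SPT16 (1.28-fold) and SSRP1 (1.46-fold) lay below the threshold. The H2A-H2B chaperones of the NAP1 family were the most abundant. NAP1;2 (AT2G19480) stood at 1429 RPKM in the embryo proper against 593 in the suspensor, 2.41-fold apart (2.33 to 2.485). NRP1 (AT1G74560), a relative, was at 335 and 79.96 RPKM, 4.195-fold apart (3.80 to 4.64). NAP1;3 (AT5G56950) was at 181 and 24.2 RPKM, 7.47-fold apart (6.46 to 8.69).

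Of 7 genes that handle H3 and H4 at replication, 3 were at least 2-fold up in the embryo proper, against 23.1% of all genes. FAS1 (AT1G65470), the large subunit of the chromatin assembly factor CAF-1, which deposits H3.1, was at 68.3 RPKM in the embryo proper against 17.05 in the suspensor, 4.01-fold apart (3.55 to 4.54). NASP (AT4G37210), an H3 chaperone, was at 48.7 and 15.9 RPKM, 3.06-fold apart (2.60 to 3.63). MSI1 (AT5G58230), the small CAF-1 subunit, was at 60.0 and 25.3 RPKM. FAS2, ASF1A, ASF1B and TSK lay below the threshold.

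The pair of genes for H3.3 deposition did not pass the threshold in either direction. HIRA (AT3G44530), the H3.3 chaperone, was at 11.2 RPKM in the embryo proper against 9.37 in the suspensor, 1.19-fold apart (1.01 to 1.41). ATRX (AT1G08600), which also deposits H3.3, was at 24.7 and 47.1 RPKM, 1.90-fold higher in the suspensor (1.77 to 2.05). Among 5 genes of H2A.Z exchange 1 passed the threshold on log2(RPKM + 1) toward the embryo proper, a share near the 23.1% over all genes. It was SEF (AT5G37055), at 73.2 RPKM in the embryo proper against 12.4 in the suspensor. PIE1 (AT3G12810), the SWR1 ATPase that inserts H2A.Z, was at 32.3 and 23.45 RPKM, and the remodeller INO80 (AT3G57300) at 12.6 and 25.3 RPKM, a log2 ratio of 0.95. Where the 10 most abundant genes of each library were left out of the scaling, 2 of the 26 genes, ATRX and INO80, passed the threshold toward the suspensor.

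Enzymes and proteins tied to H3.1, heterochromatin and the centromere were higher in the embryo proper or nearly even. ATXR6 (AT5G24330), a methyltransferase that acts on H3.1, was at 25.8 RPKM in the embryo proper against 3.84 in the suspensor, 6.725-fold apart (4.6 to 10.2). DDM1 (AT5G66750), a remodeller needed for H2A.W in heterochromatin, was at 29.9 and 9.76 RPKM, 3.07-fold apart (2.59 to 3.65). CENP-C (AT1G15660), a kinetochore protein, was at 69.55 and 14.3 RPKM, 4.86-fold apart (4.22 to 5.615). KNL2, which guides CENH3 loading, was at 10.7 and 9.06 RPKM. Beside them, 9 of 11 DNA replication genes were at least 2-fold up in the embryo proper, against 23.1% of all genes. The list of replication genes and the lists of histone handling genes were chosen with earlier results of these data known. Their counts are therefore a description. The median log2 ratio of the replication genes was −1.77. PCNA2 (AT2G29570), the replication clamp, had the highest fold of the 11, at 330.3 RPKM in the embryo proper against 41.6 in the suspensor. MCM2 (1.23-fold) and MCM7 (1.88-fold) lay below the threshold.

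**Figure D5:**
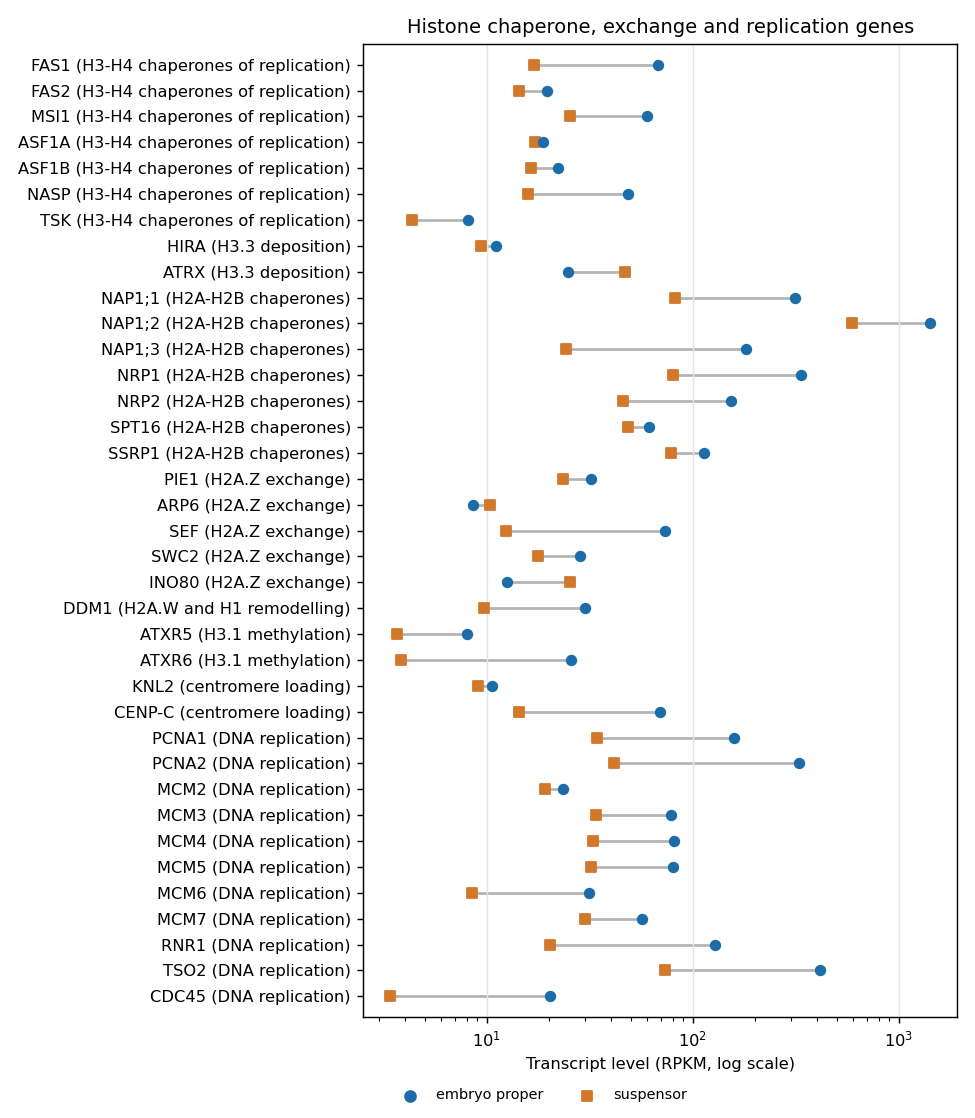
Levels in RPKM on a log axis of 26 histone chaperone, exchange, methylation and loading genes and 11 DNA replication genes, with a circle for the embryo proper library and a square for the suspensor library. Squares lie to the right for ATRX, INO80 and ARP6.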

How the data were processed

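RNA from 1 laser-captured sample of each region was amplified and sequenced. Per the labels' protocols, 15 ng of total RNA was amplified to cDNA and the library enriched by 15 PCR cycles. The deposited values are RPKM, computed by the authors per the file headers, with genes at 0 left out. HISAT2 2.0.6, HTSeq 0.6.1 and the TAIR10 build are listed, with no roles, per the submitters' processing notes. Strand use, read length and the handling of reads with several matches were not stated there.

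RPKM times coding length in kilobases, from the longest RefSeq model (TAIR10.1), summed to 1001083 in the embryo proper and 1001894 for the suspensor, near the 1000000 such values should reach, so that length was used. Library totals were found as the smallest at which low values become whole reads: among single-model genes from 0.2 RPKM up to 15 reads, 96.7% and 96.8% lay within 0.05 of a whole number. The method was tested on simulated data with these same coding lengths and independent reads. That test does not bear on the choice of length or on copied reads. All 45 members matched RefSeq loci.

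Ratios are log2 of (suspensor + 1)/(embryo proper + 1) RPKM, which understates low genes; folds are ratios of RPKM with 95% exact (Clopper-Pearson) binomial intervals on recovered reads. A pseudocount of 1 RPKM and a minimum of 1 RPKM in at least 1 library were used, and the floor of an unlisted gene was 3 reads. Genes other than members were named where at least 2-fold apart with at least 10 RPKM, at most 4 a list. Cell type markers were named from their own lists whatever their level. HIRA, ATRX, ATXR5, PIE1, ARP6, INO80, KNL2 and the genes said to lie below the threshold were named after their values had been seen. Python 3.11.15, pandas 2.3.3 and scipy 1.17.1 were used. The members, classes and lists were chosen with earlier results of these data known.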

Additional observations from a re-analysis of the deposited data

How the results depend on the processing

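No paired analysis was possible because each region has 1 library. The count of 33 histone genes past 2-fold toward the embryo proper stayed at 33 with pseudocounts of 0.1 and 5 RPKM, without the filter, at 10 RPKM and under the 4 scalings; it was 24 at 4-fold. With genes of identical protein summed it was 20, because the 42 genes at 1 RPKM then make 29 values. The 5 genes higher in the suspensor became 2 with a pseudocount of 5 RPKM, 1 at 10 RPKM, 2 at 4-fold and 1 among genes with at least 20 reads in both libraries. The median log2 ratio ran from −2.79 to −2.49 for replication-dependent genes and from −1.33 to −1.07 for variant genes, and their difference of 1.42, added after the data were seen, from 1.41 to 1.54. Of the histone handling genes, 5 in place of 12 were higher in the embryo proper at 4-fold. Leaving the 10 most abundant genes of each library out of the scaling, which moved the median of all genes by 0.163, put 2 in place of 0 at least 2-fold higher in the suspensor. That setting and the minimum of 20 reads were chosen after the data were seen. Genes under 20 reads in a library, such as HTB10, are limited by depth.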

Other observations

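Reading the H2B promoters showed the letters ATCCTCG close to the hexamer. They were then searched on either strand in the 250 bases before every gene. The letters were chosen after the sequences had been seen, so the counts are a description. They were found in 5 of 10 canonical H2B promoters (HTB1, HTB4, HTB5, HTB9 and HTB11), in 1 of 5 H3.1 promoters (HTR3), in 0 of 8 H4 and 0 of 15 variant promoters, and in 0.864% of the 27443 promoters. In 3 of the H2B promoters they began at most 5 bases after a hexamer. HTB4, the most abundant H2B gene of both libraries, has these letters only on the opposite strand and no hexamer in the window. HTB2 has the hexamer without these letters.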
